A study of Mus musculus with 21 samples.

Results

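Glucose enters a muscle fibre through facilitative transporters, is trapped inside as glucose 6-phosphate by hexokinases, and its entry is set by how many transporters sit at the surface. The account below follows 8 genes of these steps in mouse hindlimb muscle: the transporters Slc2a4 (GLUT4), Slc2a1 (GLUT1) and Slc2a3 (GLUT3), the hexokinases Hk1 and Hk2, the GLUT4 traffic regulators Tbc1d1 and Tbc1d4 (AS160), and the arrestin-like protein Txnip. They were chosen by name for these roles, and each matched 1 Ensembl mouse identifier of the 46071 genes in the table of read counts. All 8 were abundant enough to be among the 12658 genes tested.

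The study crossed a muscle-directed FoxO knockout with diabetes. All mice carried floxed Foxo1, Foxo3 and Foxo4 on a mixed strain background, and the triple knockouts (TKO) also carried ACTA1-Cre, whose skeletal actin promoter acts in muscle fibres, so other cells of the tissue keep these genes. Diabetes was induced with streptozotocin (STZ), a beta-cell toxin, injected after a night without food at 150 mg/kg. Females received a further 75 mg/kg on day 3, and mice were used only when their glucose held above 300 mg/dL. The 21 libraries of combined quadriceps and gastrocnemius fall into 4 floxed without STZ (numbers 1, 5, 9 and 19 in the titles), 6 TKO without STZ, 5 floxed with STZ and 6 TKO with STZ. The design text has controls injected with citrate buffer, while the labels of these libraries give no drug. Neither states an age or whether libraries come from different animals, and p-values measure only the spread between these libraries, which may be technical.

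GLUT4 is the transporter that insulin and contraction bring to the fibre surface. Tbc1d1 and Tbc1d4 are Rab GTPase-activating proteins that hold GLUT4 vesicles inside the fibre until Akt or AMPK phosphorylates them. GLUT1 supplies basal uptake, GLUT3 is best known from neurons and blood cells, Hk2 is the insulin-regulated hexokinase of muscle and Hk1 the housekeeping form. Txnip restrains glucose uptake and binds thioredoxin, and its transcription is known to respond to glucose through the carbohydrate-sensing factors MondoA and ChREBP.

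Total counts per library ranged from 2951290 to 7687823. Foxo4 lay at 3.87 to 12.7 CPM (counts scaled to library size) in the 12 knockout libraries and at 124 to 201 CPM in the 9 floxed ones, and Foxo1 also separated the genotypes, at 7.00 to 26.7 against 36.4 to 113 CPM. Foxo3 overlapped between genotypes and gave no check of the label. All 10 muscle-fibre markers, such as Ckm and Acta1, were detected in every library. Their summed level was lowest in STZ floxed library 17, at 53321 CPM, and erythroid markers were lowest in libraries 17 and 18, at 3.45 and 6.47 CPM. The 12 macrophage markers summed to 162 to 277 CPM in floxed libraries with or without STZ and to 283 to 2396 CPM in knockout ones, highest in libraries 4, 15, 16 and 20. These ranges do not overlap, so where a fit below takes the macrophage level as a covariate, marker level and knockout cannot be told apart. Where a call was lost without libraries 17 and 18, or without libraries 4, 15, 16 and 20, the value is given beside it.

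Promoter letters were looked at for the genes that RefSeq windows cover, because FoxO proteins and MondoA bind known short motifs. Windows of 250 bases before to 50 after a start site (GRCm38.p6) were present for 6 of the 8 genes, in 8 windows, with none for Slc2a4 and Slc2a3. The motifs searched on both strands were the FoxO site GTAAACA, the insulin response core CAAAACA, the E-box CACGTG, the carbohydrate response element (2 copies of CACGNG with 5 bases between them) and the hypoxia element ACGTG, which holds part of the E-box. Txnip is shown because it alone of these windows held the FoxO site and the carbohydrate element, both in capitals below. Over all 32851 windows, 3.65% held the FoxO site and 0.0487% the carbohydrate element. The 250 bases upstream of Txnip, chr3:96557707-96557956 on the plus strand, read as follows.
Txnip: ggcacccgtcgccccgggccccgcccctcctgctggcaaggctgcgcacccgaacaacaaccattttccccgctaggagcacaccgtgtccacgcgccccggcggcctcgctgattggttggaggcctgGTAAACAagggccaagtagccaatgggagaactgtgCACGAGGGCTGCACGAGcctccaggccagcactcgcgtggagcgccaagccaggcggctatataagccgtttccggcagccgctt
The FoxO site began 121 bases and the carbohydrate element 85 bases before the start site. The upstream bases of Hk2 (chr6:82774455-82774704), Tbc1d1 (chr5:64160010-64160259 and chr5:64230107-64230356) and Tbc1d4 (chr14:101609192-101609441), genes on which the results below turn, are shown on the strand of the gene (minus for Hk2 and Tbc1d4, plus for Tbc1d1), with the hypoxia element in capitals.
Hk2: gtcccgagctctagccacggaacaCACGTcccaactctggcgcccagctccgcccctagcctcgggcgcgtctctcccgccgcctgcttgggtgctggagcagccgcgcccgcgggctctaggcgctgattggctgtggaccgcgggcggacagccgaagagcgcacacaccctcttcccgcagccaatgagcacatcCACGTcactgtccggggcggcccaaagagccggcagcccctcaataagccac
Tbc1d1, first start: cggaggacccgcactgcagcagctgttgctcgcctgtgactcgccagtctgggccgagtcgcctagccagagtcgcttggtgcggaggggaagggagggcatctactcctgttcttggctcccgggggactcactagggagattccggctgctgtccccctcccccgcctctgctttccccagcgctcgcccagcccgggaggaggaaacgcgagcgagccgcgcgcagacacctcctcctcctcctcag
Tbc1d1, second start: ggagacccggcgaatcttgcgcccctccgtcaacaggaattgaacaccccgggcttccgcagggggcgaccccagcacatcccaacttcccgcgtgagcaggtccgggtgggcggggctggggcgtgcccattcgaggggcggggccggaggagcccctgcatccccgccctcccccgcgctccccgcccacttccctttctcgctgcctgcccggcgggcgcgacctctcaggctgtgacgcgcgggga
Tbc1d4: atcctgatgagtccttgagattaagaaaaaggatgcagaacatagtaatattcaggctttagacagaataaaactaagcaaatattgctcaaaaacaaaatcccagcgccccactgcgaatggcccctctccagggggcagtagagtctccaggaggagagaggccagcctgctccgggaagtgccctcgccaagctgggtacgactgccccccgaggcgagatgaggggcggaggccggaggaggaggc
Hk2 held the hypoxia element (on the strand opposite to the gene) at 226 and 52 bases before its start. The element was in 3 of the 8 windows, those of Hk2 and Slc2a1 and the second of Hk1, and 19.6% of all windows hold it. No window of the 6 genes held CAAAACA (6.28% of all windows) or CACGTG (7.15%), and Tbc1d1 and Tbc1d4 held none of the motifs. The Tbc1d4 stretch had 9 CpG pairs, against 20 and 27 in those of Tbc1d1 and 25 in that of Hk2. These are letters within fixed windows and not measured binding sites.

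Across the comparisons, 2 of the 8 genes passed the threshold, an adjusted p of 0.05 over all genes tested (edgeR quasi-likelihood test with Benjamini-Hochberg adjustment). STZ lowered Slc2a4 in floxed muscle, where 1 of 8 genes was lower, 0 were higher and 3 had an unadjusted p under 0.05. Of all genes tested, 1.35% were called there, 0.853% as lower. Under STZ, Tbc1d1 was higher in knockout than in floxed muscle, the only 1 of 8 called, with 4 at an unadjusted p under 0.05, where 4.89% of all genes were called, 2.47% as higher. The knockout without STZ changed 0 of 8 by edgeR, DESeq2 and limma-voom, with 0 at an unadjusted p under 0.05, and 0.514% of all genes were called. STZ in knockouts called 0 of 8 by edgeR and limma-voom and 1 by DESeq2, with 3 at an unadjusted p under 0.05 and 0.142% of all genes called. The interaction, which tests whether the STZ effect differs between genotypes, called 0 of 8 by edgeR, DESeq2 and limma-voom, with 1 at an unadjusted p under 0.05 and 0.0079% of all genes called. The 8 genes did not move together: their median log2 fold change was 0.08 for STZ in floxed muscle, -0.05 for the knockout without STZ, 0.34 for the knockout under STZ and 0.20 for STZ in knockouts, beside medians over all genes of 0.02, 0, 0.03 and 0.01.

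**Figure D1:**
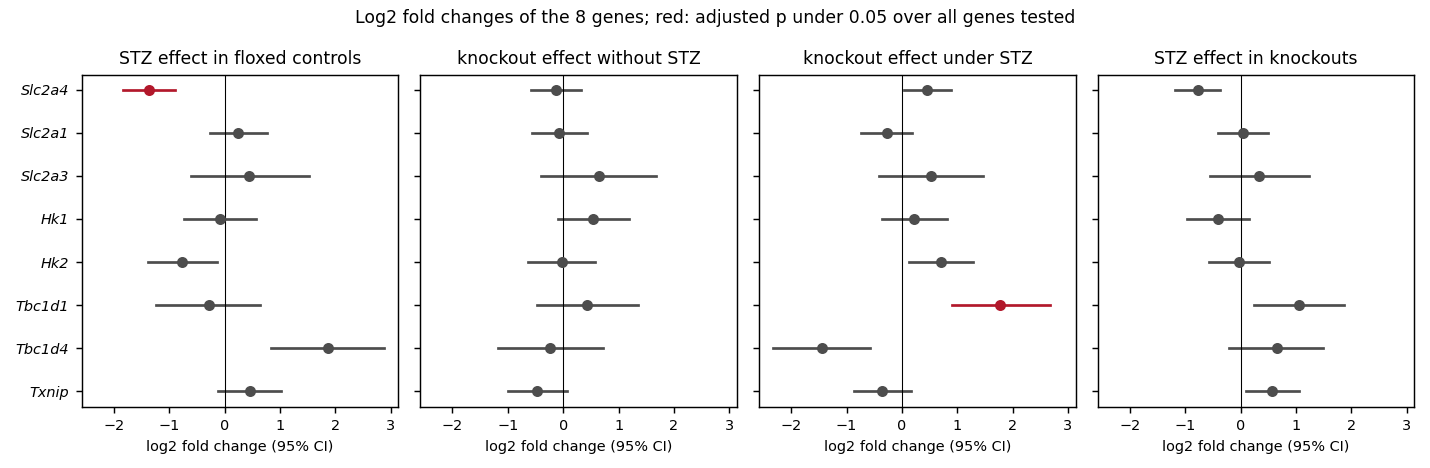
Log2 fold changes of the 8 genes in 4 comparisons, with points for the edgeR estimate and lines for the 95% confidence interval. Slc2a4 under STZ in floxed muscle (-1.36) and Tbc1d1 in knockouts under STZ (1.78) are in red, the 2 values with an adjusted p under 0.05.

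Slc2a4 lost most of its level under STZ in floxed muscle. The gene (ENSMUSG00000018566) lies at chr11:69942539-69948188 on the minus strand of GRCm38, the build of all gene positions given here. It lay at 1094, 1201, 926 and 921 CPM in floxed libraries 1, 5, 9 and 19, and at 498, 397, 372, 350.5 and 394 CPM in STZ floxed libraries 3, 7, 14, 17 and 21. The 2 groups did not overlap, as for 8.79% of all genes in this comparison. The level fell by 1.36 ± 0.23 on the log2 scale (95% interval -1.84 to -0.89), to 0.388 of the floxed level, with an adjusted p of 0.00387 and rank 14 of 12658 by p. It stayed past the threshold in each of 33 other settings, with values from -1.46 to -1.25, and was -1.31 (adjusted p = 0.0082) without libraries 17 and 18. In bulk tissue, fewer cells of a type and less RNA per cell cannot be told apart. The muscle-fibre markers had a median of -0.44 in this comparison, with 0 of 10 called by edgeR or limma-voom and 1 by DESeq2. Of these 10, 3 had an unadjusted p under 0.05 by edgeR, and their part in the result was not tested.

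In knockout muscle Slc2a4 without STZ ranged from 432 to 1234 CPM with a median of 999, and 5 of the 6 libraries were at 850 or above. Library 20, one of the 4 with high macrophage markers, held the lowest value. With STZ the knockouts ranged from 477 to 691 CPM with a median of 534, below 5 of the 6 TKO libraries without STZ. The STZ effect in knockouts was -0.77 ± 0.20 with an adjusted p of 0.126, and it passed without library 20 (-0.93, adjusted p = 0.00672). Knockout and floxed muscle without STZ differed by -0.13 ± 0.22 (95% interval -0.58 to 0.32). Under STZ the knockout value was 0.46 ± 0.21 higher with an adjusted p of 0.229, and 5 of 6 STZ TKO libraries lay above the highest STZ floxed library. The difference between the STZ effects, 0.59 ± 0.30, had an interval from -0.03 to 1.21 and an adjusted p of 1.

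**Figure D2:**
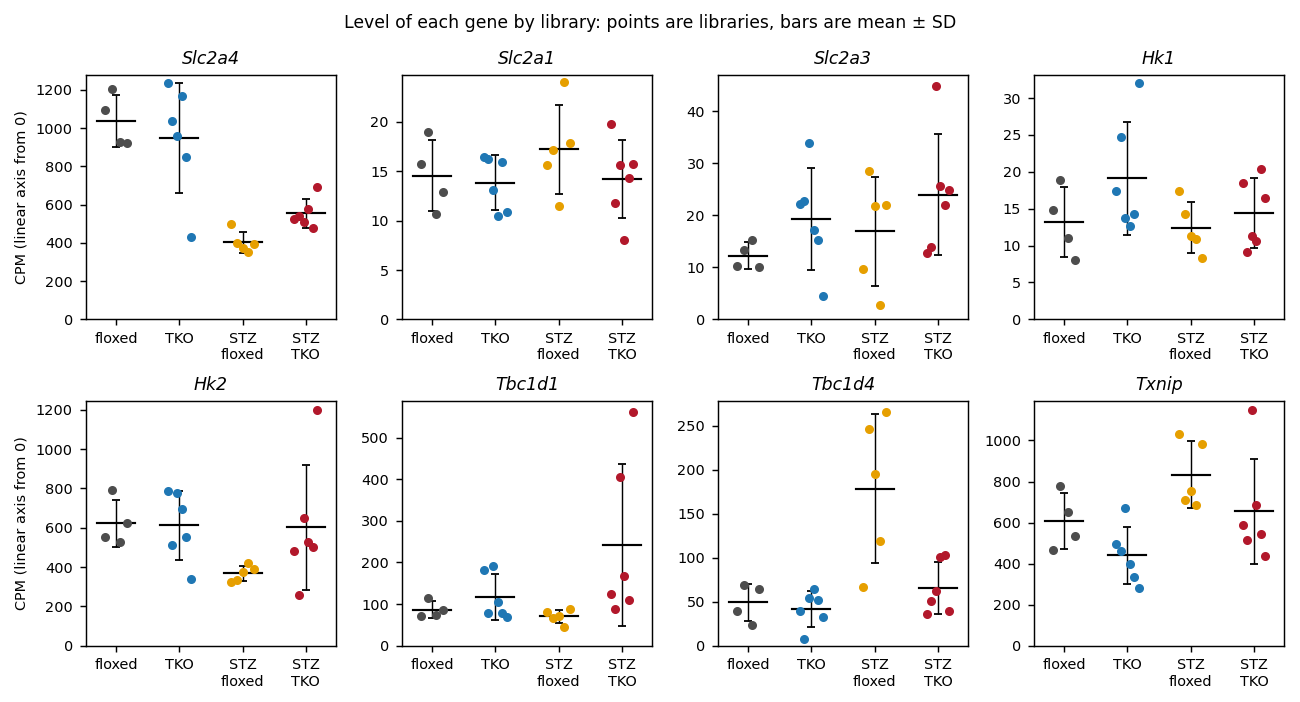
Level of each gene in CPM on a linear axis from 0, by group, with 1 point per library and bars for the mean ± SD. Slc2a4 lies between 350.5 and 498 in the 5 STZ floxed libraries and between 921 and 1201 in the 4 floxed ones, while the highest Hk2 and Tbc1d1 points, 1198 and 563, are both STZ TKO library 18.

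GLUT1 and GLUT3 transcripts were scarce beside GLUT4 and no test called them. Levels between genes are compared per kilobase of exon: in floxed muscle Slc2a4 stood at 298 ± 39.3 CPM per kilobase (SD, n = 4), Slc2a1 at 4.15 ± 1.02 and Slc2a3 at 1.69 ± 0.352. Slc2a4 made 97.9 to 98.2% of the sum of the 3 in floxed libraries and 92.8 to 96.1% in STZ floxed ones, and those ranges did not overlap. In knockouts the share was 97.0 to 98.4% without STZ and 93.2 to 96.7% with it, ranges that do not overlap either. Because Slc2a4 makes most of the sum of the 3, that sum follows it by arithmetic. It was 304 ± 40.3 CPM per kilobase in floxed (SD, n = 4) and 123 ± 15.8 in STZ floxed muscle (SD, n = 5). Neither the shares nor the sum are independent of the Slc2a4 level.

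Slc2a1 (ENSMUSG00000028645, chr4:119108711-119137983, plus strand) lay at 15.7, 18.9, 10.7 and 12.9 CPM in floxed libraries 1, 5, 9 and 19 and at 15.6, 17.2, 11.4, 24.0 and 17.9 CPM in STZ floxed libraries 3, 7, 14, 17 and 21. TKO libraries ranged from 10.5 to 16.5 CPM (median 14.5) and STZ TKO libraries from 8.03 to 19.8 (median 15.0). The 4 groups overlapped throughout. Its log2 differences were between -0.27 and 0.25 in the 4 comparisons, and the 95% interval for STZ in floxed muscle ran from -0.27 to 0.76. Slc2a1 shares 105 exon bases with Gm12868 on the opposite strand, which drew 9 counts over all libraries.

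Slc2a3 (ENSMUSG00000003153, chr6:122727809-122801640, minus strand) varied widely within groups. Floxed libraries 1, 5, 9 and 19 lay at 10.3, 13.4, 15.3 and 10.0 CPM, and STZ floxed libraries 3, 7, 14, 17 and 21 at 9.63, 28.5, 21.8, 2.73 and 21.9 CPM. TKO libraries ranged from 4.51 to 34.0 CPM (median 19.7) and STZ TKO ones from 12.7 to 45.0 (median 23.4). The lowest values were in libraries 17 and 20, those with the lowest summed muscle-fibre markers in their groups, and the highest in library 11. Across the 21 libraries Slc2a3 had a Pearson r of 0.54 with those markers on the log2 scale, a description over libraries that share groups and depth. The differences of 0.45 ± 0.51 for STZ in floxed muscle and 0.64 ± 0.50 for the knockout without STZ had wide intervals, -0.61 to 1.52 and -0.40 to 1.67.

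Hk2 (ENSMUSG00000000628, chr6:82725025-82774454, minus strand) carried nearly all transcript of the pair Hk1 and Hk2 and was lower in every STZ floxed library, without passing the threshold. It lay at 552, 792, 528 and 622 CPM in floxed libraries 1, 5, 9 and 19 and at 322, 334, 373, 389 and 420 CPM in STZ floxed libraries 3, 7, 14, 21 and 17. The groups did not overlap, which held for 8.79% of all genes in either direction and for 5.17% on the lower side. The difference was -0.76 ± 0.30 (95% interval -1.39 to -0.13) with an adjusted p of 0.238, and 0.0416 in a fit of only those 2 groups. TKO libraries ranged from 337 to 789 CPM (median 625.4) and differed from floxed by -0.03 ± 0.29.

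With STZ, knockout Hk2 ranged from 260.2 to 1198 CPM with a median of 513. Library 18 held the highest value and library 8 the lowest, and the other 4 lay above all 5 STZ floxed libraries. The knockout effect under STZ was 0.71 ± 0.28 with an adjusted p of 0.153. It was 0.40 (adjusted p = 0.362) without library 18 and 0.87 (adjusted p = 0.0463) without library 8. In knockouts the STZ effect was -0.02 ± 0.26 (interaction 0.74 ± 0.40, 95% interval -0.09 to 1.58, adjusted p of 1).

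Hk1 (ENSMUSG00000037012, chr10:62268855-62379908, minus strand) lay at 14.8, 18.9, 11.0 and 8.05 CPM in floxed libraries 1, 5, 9 and 19 and at 17.4, 14.2, 11.3, 10.9 and 8.33 CPM in STZ floxed libraries 3, 7, 14, 17 and 21. TKO libraries ranged from 12.6 to 32.0 CPM (median 15.8) and STZ TKO ones from 9.10 to 20.4 (median 13.9). All groups overlapped. Per kilobase, Hk2 made 98.2 to 99.1% of both hexokinases in floxed libraries, 96.4 to 98.5% in STZ floxed ones, 97.2 to 99.0% in STZ TKO ones and 93.8 to 98.8% in TKO ones. The lowest share was in library 20, where Hk1 was highest. The knockout difference without STZ was 0.54 ± 0.31 (95% interval -0.09 to 1.18). Macrophage markers, higher in knockouts, had an r of 0.55 with Hk1 over the 21 libraries, and with their level as a covariate the difference was -0.18 (adjusted p of 1). That level separated the genotypes, so the fit cannot tell marker level from knockout.

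The Rab-GAP pair diverged under STZ: Tbc1d1 was higher and Tbc1d4 lower in knockout than in floxed muscle, though only Tbc1d1 passed the threshold. Tbc1d1 (ENSMUSG00000029174) lies at chr5:64156305-64351486 on the plus strand and Tbc1d4 (ENSMUSG00000033083) at chr14:101442360-101609191 on the minus strand. Tbc1d1 lay at 81.7, 65.4, 71.4, 46.0 and 88.2 CPM in STZ floxed libraries 3, 7, 14, 17 and 21 and ranged from 87.4 to 563 CPM with a median of 146 in STZ TKO ones. The groups touched in 1 pair, library 21 above library 8. The knockout effect was 1.78 ± 0.43 (95% interval 0.90 to 2.67), 3.44-fold, with an adjusted p of 0.0168. The mean of 243 ± 195 CPM (SD, n = 6) rests on libraries 11 and 18, at 405 and 563, beside 87.4, 109, 124 and 168 in the other 4. The value was 1.34 (adjusted p = 0.0364) without library 18 and 1.58 (adjusted p = 0.0352) without library 11.

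The call for Tbc1d1 held in 29 of 33 other settings, with values from 1.22 to 2.56. It was lost without libraries 17 and 18 (1.22, adjusted p = 0.0884), with runs of consecutive library codes as a block (1.40, 0.105), with no low-count filter (1.77, 0.0626) and in a fit of only the 2 groups (1.79, 0.0613). The titles' library codes form 6 such runs, which the labels do not call batches. Within the 4 runs that hold both STZ groups the difference was positive in each, 0.61, 0.42, 0.61 and 3.61, the last being library 18 against library 17.

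Without STZ, Tbc1d1 lay at 71.0, 115, 74.4 and 86.4 CPM in floxed libraries 1, 5, 9 and 19 and ranged from 68.8 to 191 CPM (median 91.2) in TKO ones, where libraries 2 and 10 were above all floxed libraries. The knockout effect without STZ was 0.43 ± 0.44 with an adjusted p of 0.821. The STZ difference was -0.29 ± 0.45 in floxed muscle and 1.06 ± 0.39 in knockouts, with adjusted p of 0.82 and 0.333. The difference between those STZ effects, 1.35 ± 0.60 (95% interval 0.11 to 2.59), had an adjusted p of 1, so the knockout effects with and without STZ were not shown to differ.

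Tbc1d4 was high in 4 of the 5 STZ floxed libraries. It lay at 39.4, 68.5, 23.9 and 64.8 CPM in floxed libraries 1, 5, 9 and 19, and at 66.3, 247, 195, 119 and 265 CPM in STZ floxed libraries 3, 7, 14, 17 and 21. Library 3 lay within the floxed range and the other 4 above it. The STZ difference in floxed muscle was 1.86 ± 0.49 (95% interval 0.84 to 2.88) with an adjusted p of 0.0628. It passed without library 3 (adjusted p = 0.027), without TKO library 6 (0.0264), by DESeq2 (0.00475), in a fit of the 2 groups (0.0459) and with macrophage markers as a covariate (0.0466), 5 of 33 settings.

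In STZ TKO libraries Tbc1d4 ranged from 36.2 to 103 CPM with a median of 56.2, and 4 of the 5 STZ floxed libraries lay above all of them. The knockout effect under STZ was -1.45 ± 0.42 (95% interval -2.32 to -0.57) with an adjusted p of 0.0503. It passed in 11 of 33 other settings, among them DESeq2 (0.0117) and, with values from -1.65 to -1.44, the omission of library 3, 6, 9, 12, 13, 15, 17 or 20 (0.019 to 0.0495). With macrophage markers as a covariate it was -1.03 (adjusted p = 0.43). Each of 4 code runs gave a negative difference, -0.87, -2.28, -0.92 and -1.60. TKO libraries without STZ ranged from 7.37 to 64.3 CPM (median 45.6), library 6 being lowest, and differed from floxed by -0.23 ± 0.45. The STZ effect in knockouts was 0.65 ± 0.41, and the difference between the STZ effects was -1.22 ± 0.63 (95% interval -2.51 to 0.08, adjusted p of 1).

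The ratio of Tbc1d1 to Tbc1d4, both per kilobase, was 1.38 to 3.22 in floxed libraries, 0.275 to 1.28 in STZ floxed ones, 1.55 to 10.9 in TKO ones and 1.09 to 14.8 in STZ TKO ones. The STZ floxed libraries lay below all floxed and all TKO libraries. Their highest, library 3 at 1.28, overlapped the lowest of the STZ TKO libraries. The ratio is not independent of the levels of Tbc1d1 and Tbc1d4. Neither passed the threshold by edgeR for STZ in floxed muscle (adjusted p of 0.82 and 0.0628). Over the 21 libraries r between the pair was -0.14, and 0.11 after subtraction of group means. Libraries 11 and 18, highest for Tbc1d1, had 61.8 and 39.3 CPM of Tbc1d4, within the range of their group.

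**Figure D3:**
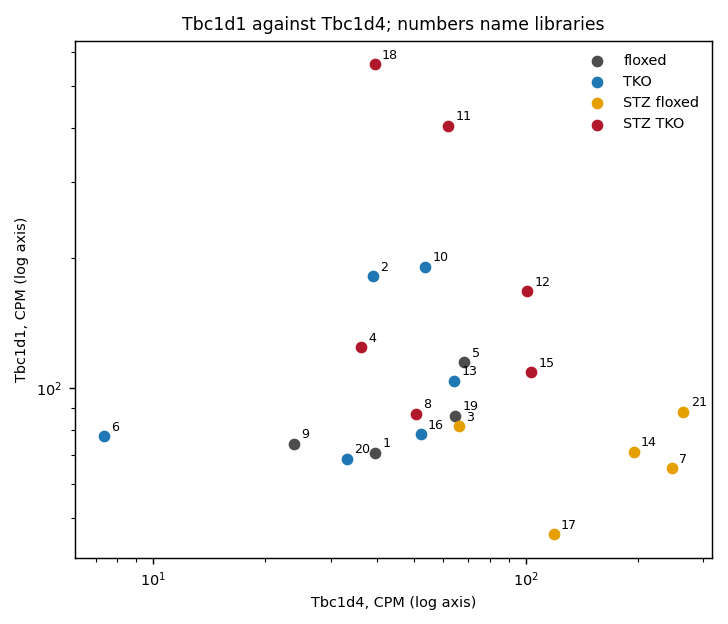
Tbc1d1 against Tbc1d4 in CPM, both on log axes, with 1 numbered point per library coloured by group. The STZ floxed libraries lie to the lower right, from 46.0 to 88.2 for Tbc1d1 and 66.3 to 265 for Tbc1d4, and STZ TKO libraries 11 and 18 lie at the top, at 405 and 563 for Tbc1d1.

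Txnip (ENSMUSG00000038393, chr3:96557957-96561883, plus strand), whose promoter letters are given above, was abundant in all groups and passed no test. It lay at 465.5, 776, 652 and 536 CPM in floxed libraries 1, 5, 9 and 19 and at 1033, 709, 752, 684 and 984 CPM in STZ floxed libraries 3, 7, 14, 17 and 21. The groups overlapped through floxed library 5. The STZ difference was 0.46 ± 0.27 in floxed muscle (95% interval -0.11 to 1.02) and 0.57 ± 0.24 in knockouts (0.09 to 1.06), with adjusted p of 0.463 and 0.379. TKO libraries ranged from 279.8 to 669 CPM (median 430.4) and STZ TKO ones from 439 to 1149.7 (median 568.3).

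The knockout difference for Txnip was -0.47 ± 0.26 without STZ (95% interval -1.0 to 0.07) and -0.35 ± 0.25 with it (-0.86 to 0.16). Within code runs the STZ difference in knockouts was positive in 5 of 5, from 0.16 to 0.45, and the knockout difference under STZ was negative in 4 of 4, from -0.81 to -0.46. The other comparisons had mixed signs. STZ in floxed muscle was positive in 2 of 3 runs (-0.13 to 1.15) and the knockout without STZ in 2 of 4 (-0.94 to 0.10). Nearly all of these differences set 1 library against 1. STZ TKO library 11 stood above the rest of its group. Macrophage and fibroblast markers had r of -0.56 and -0.72 with Txnip over the 21 libraries. With the macrophage level as a covariate the knockout differences were 0.03 without STZ and 0.09 with STZ, in a fit that cannot tell that level from the knockout. Txnip shares 606 of its 3123 exon bases with Gm15441 on the opposite strand, which had 35 counts in all.

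Ordered by level per kilobase, Slc2a4 led in floxed muscle at 298, followed by Txnip at 194 and Hk2 at 104, each with a range apart from the next. Tbc1d1 at 11.7 was above Tbc1d4 at 6.40, again without overlap. The ranges of Tbc1d4 and Slc2a1 (4.15) overlapped, but within each floxed library Tbc1d4 was the higher, at 3.12 against 3.05 in library 9. Slc2a3 (1.69) and Hk1 (1.55) had no fixed order. Slc2a3 was the lower in libraries 1 and 5 and the higher in libraries 9 and 19. In STZ floxed muscle Txnip, at 267 ± 52.4 CPM per kilobase (SD, n = 5), stood above Slc2a4 at 116 ± 16.3, and the 2 ranges, 219 to 331 and 101 to 143, did not overlap. Tbc1d4 at 23.3 ± 11.0 there stood above Tbc1d1 at 9.53 ± 2.21, with overlapping ranges. In TKO muscle Slc2a4 (272) was again above Txnip (141), with overlapping ranges but in each library. In STZ TKO muscle Txnip (210) was above Slc2a4 (159), with overlapping ranges and in each library except 18.

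Other genes of the pathway were read as lists. Of the other hexokinases and transporters, Hk3, an isoform of blood cells, is named here after its values were seen. It was at 0.464 ± 0.101 CPM in floxed (SD, n = 4), 4.01 ± 3.07 in TKO (SD, n = 6), 0.886 ± 0.406 in STZ floxed (SD, n = 5) and 3.91 ± 3.6 in STZ TKO muscle (SD, n = 6). The knockout differences for Hk3 were 3.12 ± 0.77 without STZ (adjusted p = 0.0659) and 2.04 ± 0.63 under STZ (0.062) by edgeR, and DESeq2 called both. Hk3 was highest in libraries 4, 15, 16 and 20, those highest in macrophage markers, and the part of those markers in its level was not tested. Transcripts of Slc2a2, Slc2a5, Slc5a1, Slc5a2 and Hkdc1 had at most 6 counts in any library.

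All 28 genes of GLUT4 traffic and fusion were tested, and by edgeR 1 was lower in knockouts: Sort1, sortilin, a sorting receptor of GLUT4 storage vesicles. Sort1 lay between 234 and 368 CPM in the 9 floxed libraries and between 69.7 and 149 CPM in the 12 knockout ones. The share of all genes that separate the genotypes as fully is not given here. The knockout effect was -0.99 ± 0.21 (adjusted p = 0.0277) without STZ and -1.63 ± 0.20 (3.45e-05) under STZ. The first was lost without library 1, 5, 9, 10, 16 or 19 (-1.03 to -0.96, adjusted p 0.0509 to 0.107), without libraries 4, 15, 16 and 20 (-1.03, 0.0694), with total counts (-0.80, 0.148) and with the macrophage covariate (-1.03, 0.267), while the second held in all 33 settings. List medians were -0.10 and -0.09, with 4 genes each at an unadjusted p under 0.05. DESeq2 called 2 without STZ, Sort1 and Exoc7, and 3 under STZ, Sort1, Trarg1 and Myo5a. Exoc7, Trarg1 and Myo5a were named after their values were seen, and by edgeR they differed by -0.78 ± 0.22 (adjusted p = 0.0992), -1.17 ± 0.36 (0.0587) and 1.06 ± 0.35 (0.0828) there. STZ called 0 of 28 by edgeR, DESeq2 and limma-voom in either genotype, with 0 at an unadjusted p under 0.05 in floxed muscle and 6 in knockouts, and medians of 0.11 and 0.03.

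Of 12 transcription regulators of Slc2a4, 3 changed in knockouts under STZ. Mef2c, a myocyte enhancer factor that acts at the Slc2a4 promoter, was higher there. It lay at 523, 491, 524.5, 226 and 644 CPM in STZ floxed libraries 3, 7, 14, 17 and 21. In STZ TKO libraries it lay between 808 and 1329.5 CPM (0.99 ± 0.22, adjusted p = 0.00849, and 0.0509 in a fit of only the 2 groups). The share of all genes without overlap between these 2 groups is not given here. Floxed and TKO muscle without STZ stood at 844 ± 99.4 (SD, n = 4) and 888 ± 151 CPM (SD, n = 6), above the STZ floxed group. Its STZ difference in floxed muscle was -0.81 ± 0.24 with an adjusted p of 0.089, and DESeq2 called it. Klf15, a Krüppel-like factor, fell by 1.22 ± 0.26 in knockouts without STZ (adjusted p = 0.0289) and by 0.99 ± 0.24 under STZ (0.0173). Floxed libraries lay at 23.3 to 48.5 CPM and knockout ones at 8.14 to 18.8 apart from library 18 at 32.4. The Klf15 call without STZ was lost without library 1, 5, 9, 10, 16 or 20 (-1.22 to -1.07, 0.0562 to 0.13), without libraries 4, 15, 16 and 20 (-1.0, 0.178), with total counts (-1.06, 0.0752) and with the macrophage covariate (-0.93, 0.614). The Klf15 call under STZ was lost without libraries 4, 15, 16 and 20 (-0.85, 0.0701), in a fit of only the 2 groups (-0.98, 0.0572) and with the macrophage covariate (-0.71, 0.309). Ppard, a fatty acid receptor, was lower by 0.62 ± 0.18 in knockout than in floxed muscle under STZ (adjusted p = 0.04). It lost the call without library 3, 4, 7, 14, 15, 17, 19 or 21 (-0.67 to -0.59, 0.0502 to 0.0836). Ppard also lost it without libraries 4, 15, 16 and 20 (-0.61, 0.124), with total counts (-0.60, 0.0911), no low-count filter (-0.64, 0.114), only the 2 groups (-0.61, 0.14) and the macrophage covariate (-0.48, 0.338). The list had medians of -0.09, -0.07, 0.04 and 0.04 in the 4 comparisons and 0 calls by edgeR for STZ in either genotype, with 3 and 1 at an unadjusted p under 0.05.

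Among 9 AMPK subunits and upstream kinases, Prkag2, a regulatory subunit, fell under STZ in floxed muscle (-0.81 ± 0.20, adjusted p = 0.0477). It lay at 10.2 to 15.0 CPM in floxed and 5.46 to 8.09 CPM in STZ floxed libraries. These ranges did not overlap, as for 5.17% of all genes on the lower side in this comparison. The call was lost on omission of 16 of the 21 libraries (1, 2, 3, 5, 6, 7, 9, 10, 11, 12, 14, 15, 16, 17, 19 or 21), at -0.88 to -0.69 and adjusted p of 0.0513 to 0.199. It was also lost without libraries 17 and 18 (-0.84, 0.0599) and in 5 other settings (-0.82 to -0.69, 0.0555 to 0.184). Prkaa2, a catalytic subunit, was lower in knockouts under STZ (-1.16 ± 0.33, 0.0449). STZ floxed library 17 held its highest value, 1960.3 CPM, and without that library the difference was -0.82 (adjusted p = 0.152). Omission of 15 of the 21 libraries (1, 2, 4, 5, 8, 9, 10, 11, 14, 15, 16, 17, 18, 19 or 21) ended that call, at -1.22 to -0.82 and 0.0508 to 0.152. So did omission of libraries 17 and 18 (-0.86, 0.166), of libraries 4, 15, 16 and 20 (-1.04, 0.153), the macrophage covariate (-0.74, 0.429) and 4 other settings (-1.21 to -1.10, 0.0531 to 0.0877). List medians were -0.20, -0.05, -0.23 and -0.17.

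**Figure D4:**
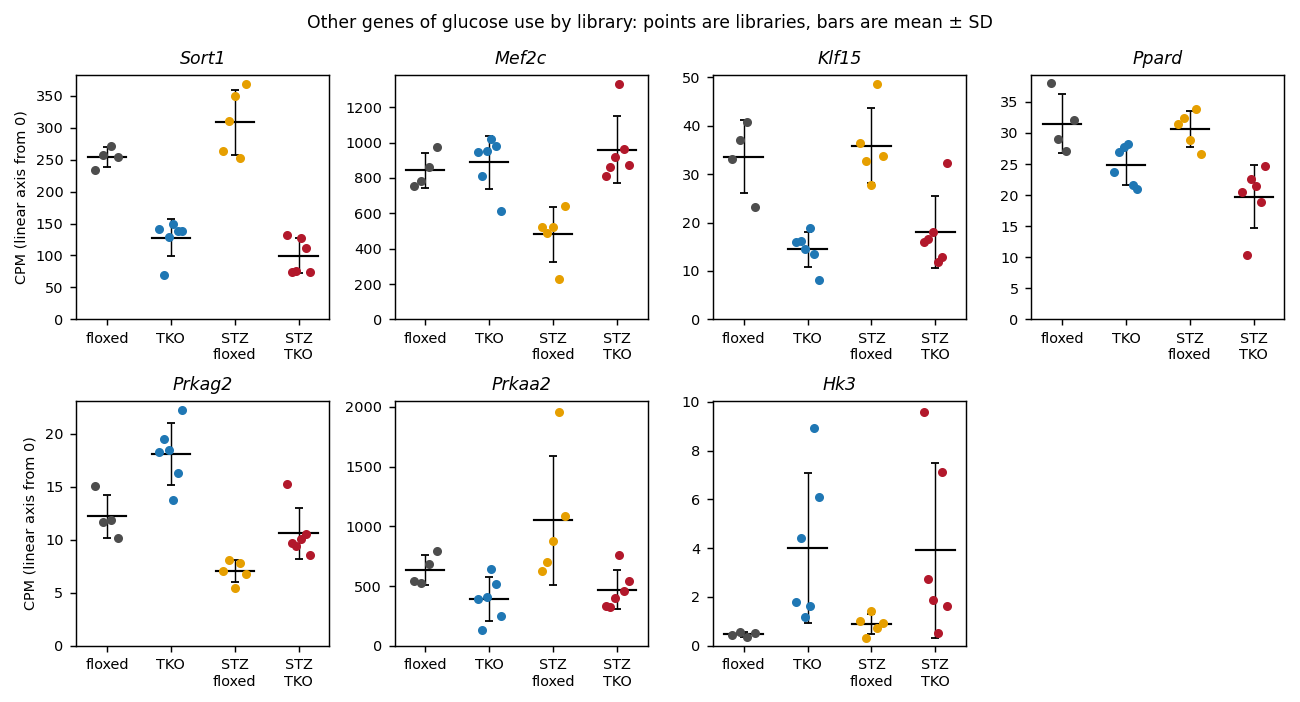
Level of 7 other genes of glucose use in CPM on linear axes from 0, by group, with 1 point per library and bars for the mean ± SD. Sort1 is at most 149 in the 12 knockout libraries and at least 234 in the 9 floxed ones. Mef2c is lowest in the 5 STZ floxed libraries (226 to 644) apart from TKO library 20 at 615.

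In 3 further lists no gene passed the threshold by edgeR, DESeq2 or limma-voom. The 10 tested genes of the Txnip and MondoA pathway, among them Mlxip (MondoA) and the Txnip relatives Arrdc3 and Arrdc4, had medians between -0.06 and 0.02, with 1, 1, 0 and 3 at an unadjusted p under 0.05 in the 4 comparisons. The 9 enzymes that take up glucose 6-phosphate, toward glycolysis, glycogen, the pentose phosphate path or hexosamines, had medians between -0.09 and 0.05, with 1, 0, 1 and 1. The 3 voltage-dependent anion channels to which hexokinase docks on mitochondria had medians of -0.46, -0.22, 0.21 and -0.03, with 2 at an unadjusted p under 0.05 for STZ in floxed muscle and 0 in the other 3.

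Marker levels of other cells are set beside these results. Of 12 macrophage markers, 6 were higher in knockouts under STZ and 2 without, by edgeR, with medians of 1.82 and 2.09 and none at 0 in all libraries of a group. DESeq2 called 10 and 8 of them and limma-voom 2 and 0, and all 12 had an unadjusted p under 0.05 by edgeR in both comparisons. Fibroblast markers summed to 1636 to 4508 CPM in floxed and 555 to 1098 CPM in STZ floxed libraries, with 1 of 6 lower, and to 688 to 3838 CPM in STZ TKO ones, with 1 of 6 higher than in STZ floxed. Slow-fibre markers had 0 of 8 called in any comparison by edgeR, DESeq2 or limma-voom, with 2 at an unadjusted p under 0.05 for STZ in floxed muscle and 0 in the others, and a median of -0.59 there. Endothelial markers summed to 459 to 604 CPM in floxed libraries with or without STZ and to 279 to 507 CPM in knockout ones. Their medians were -0.23 for the knockout without STZ and -0.37 under STZ. Of 10, 0 were called by edgeR or limma-voom in either, with 3 and 4 at an unadjusted p under 0.05, and DESeq2 called 0 and 1. Adipocyte markers summed to 127 to 268 CPM in floxed, 71.4 to 372 CPM in STZ floxed, 98.9 to 213 CPM in TKO and 44.2 to 516 CPM in STZ TKO libraries, and their medians were -0.81 for the knockout without STZ and -1.32 under STZ. Of the 6 adipocyte markers, 0 were called by edgeR or limma-voom in either, with 0 and 3 at an unadjusted p under 0.05, and DESeq2 called 0 and 2. Fat cells also express Slc2a4, Tbc1d4 and Sort1. The part of these markers in the levels of the genes described was not tested. Only the macrophage level was taken as a covariate, and it separated the genotypes. On a centred log2 scale it was -1.24 to -0.67 in floxed and -0.52 to 2.18 in knockout libraries, so it cannot be told from the knockout. With that covariate, Slc2a4 under STZ in floxed muscle was -1.32 (adjusted p = 0.000989) and Tbc1d1 in knockouts under STZ 2.56 (0.00437).

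The genes whose log2 CPM followed each of the 8 most closely over the 21 libraries were listed among 9864 genes, as a description in which libraries share groups, depth and composition. Slc2a4 went with Kcna7 (r = 0.89), a potassium channel of skeletal muscle, Fhl3 (0.87) and Clcn4 (0.87), and r was still 0.75, 0.68 and 0.79 after subtraction of group means. Tbc1d1 went with Rps6ka5 (0.90, and 0.83 within groups), Dglucy (0.89, 0.89) and Eef2k (0.88, 0.86). Eef2k, the elongation factor 2 kinase, also led for Slc2a3 (0.78, and 0.76 within groups), followed by Mss51 (0.75, 0.79) and Cacna1s (0.74, 0.74). Tbc1d4 went with Tnfsf10 (0.89, and 0.77 within groups), Rhpn2 (0.88, 0.74) and Ogt (0.85, 0.72), the O-GlcNAc transferase.

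Txnip went with Pdk4 (0.82), the kinase that shuts off pyruvate dehydrogenase, then Smyd2 (0.79) and Ybx3 (0.78). After subtraction of group means these r were lower, at 0.62, 0.64 and 0.53. Hk2 went with Smad3 (0.85, and 0.82 within groups), Bdh1 (0.83, 0.76) and Ptpn11 (0.81, 0.75). Slc2a1 went with Jade2 (0.75, and 0.78 within groups), Tut1 (0.74, 0.76) and Lrrc59 (0.73, 0.70). Hk1 went with Sod3, the extracellular superoxide dismutase (0.87, and 0.85 within groups), Zyx (0.87, 0.84) and Gnai2 (0.86, 0.83). Among the 8 themselves, the closest pair was Hk2 and Tbc1d1, with r of 0.69 and of 0.83 after subtraction of group means. Slc2a4 had an r of 0.66 with Hk2 (0.56 within groups) and of -0.60 with Tbc1d4, which was -0.09 within groups.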

How the data were processed

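RNA sequencing measured mouse quadriceps and gastrocnemius combined, in 21 libraries from a stranded kit. The deposited file holds raw read counts per Ensembl gene, left without normalization by the authors. Reads were aligned with STAR and counted with featureCounts on GRCm38.p4, per the submitters' processing notes. Program versions, gene models, strandedness of the counting and treatment of multiply mapped reads were not given in the sources used here, so a gene and its antisense partner may share counts. Identifiers were matched to symbols and loci by GENCODE mouse release 21, for 45143 of 46071; the rest held 0.0533% of counts.

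Groups came from the genotype and drug labels. Genes were filtered with filterByExpr (12658 kept), scaled by TMM (factors 0.862 to 1.35) and tested with edgeR 4.0.16 in R 4.3.3, a robust quasi-likelihood fit of 4 group means to all libraries with 5 contrasts. Tests were two-sided with Benjamini-Hochberg adjustment over all genes tested, threshold 0.05. The biological coefficient of variation was 32.5%. Values are CPM of the TMM-scaled library, with SD over libraries, and fold changes carry the standard error and 95% interval of the fit. Levels per kilobase divide by the union of exons. Libraries were checked for duplicates by a chi-square of each pair's counts, over genes reaching 10 counts, and the smallest ratio to its degrees of freedom was 8.61.

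The genes, lists, motifs and tests were chosen with earlier results of these data known. Named genes were the 8 in every contrast, list genes past the threshold (at most 6 per contrast, largest change first) and, for likeness, the 3 genes with the highest Pearson r of log2 CPM (prior count 2) with a mean of at least 2, leaving out predicted models. The result of 1 list is not reported here. Alternatives were RLE and total-count scaling, DESeq2 1.42.0, limma-voom (limma 3.58.1), no or a stricter low-count filter (1 CPM in 4 libraries), a fit that was not robust, only the 2 groups compared, code runs as a block, macrophage marker level as a covariate, and omission of libraries. RefSeq promoter windows were searched for motifs by exact letters. The code was tested on simulated data.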

Additional observations from a re-analysis of the deposited data

Results flagged for a closer look

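Txnip in STZ TKO library 11 stood apart from its group. It lay at 1149.7 CPM, the nearest of the other 5 at 684.9 CPM, and that gap was 0.654 of the whole range of the 6 libraries, above the critical value of 0.625 of Dixon's test. Of 32 groups examined, 8 genes in 4 groups, it was the 1 flagged, and chance flags about 1 in 20. The same library was also highest in its group for Slc2a3 and next to highest for Tbc1d1 and Hk2.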

How the results depend on the processing

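No paired analysis was possible because the library numbers in the titles are unique, so groups share none. Runs of consecutive library codes, which the labels do not call batches or pairs, were fitted as a block instead. The number of the 8 genes called for STZ in floxed muscle (1) was 2 by DESeq2, 3 with only the 2 groups compared and 2 with the macrophage covariate, and 1 to 2 on omission of 1 library in turn. For the knockout under STZ (1) it was 2 with RLE factors, 2 by DESeq2, 2 in the fit that was not robust, 0 with no low-count filter, 0 with only the 2 groups, 0 with code runs as a block and 0 without libraries 17 and 18, and 1 to 2 on omission of 1 library. For STZ in knockouts (0) it was 1 with total counts, 1 by DESeq2 and 1 without libraries 4, 15, 16 and 20, and 0 to 1 on omission of 1 library. The extra calls were Tbc1d4 and Hk2 in the first, Tbc1d4 or Hk2 in the second and Slc2a4 in the third comparison. The other 2 comparisons called 0 of the 8 in every setting run. Differences of at least 1 standard error that changed sign did so with the macrophage covariate only: Hk1 (-0.18) and Txnip (0.03) for the knockout without STZ and Txnip (0.09) under STZ, with the cause not tested. Over all genes, the counts called were 171 (31 to 425), 65 (16 to 351), 619 (219 to 1068), 18 (4 to 111) and 1 (0 to 4) for STZ in floxed muscle, the knockout without STZ, the knockout under STZ, STZ in knockouts and the interaction. Scaling by total counts moved the median of all genes to 0.14 and 0.18 in the first 2 comparisons and to -0.16 in the interaction. Slc2a1, Slc2a3 and Hk1, at 15 to 264 counts, were low in every library and carry a wide counting error. Tbc1d4 ranged from 20 to 1720 counts, lowest in TKO library 6, where its counting error is also wide.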
